A study of Mus musculus with 33 samples.

Results

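The comparison described here set 3 livers collected 4 d after a 70% partial hepatectomy against 3 livers labelled 0 d, in a mouse time course of 11 times between 0 and 14 d with 3 arrays each. The 6 arrays were chosen by their titles, out of 33 in all, and every gene of the table entered the comparison. Partial hepatectomy is the surgical removal of most of the liver lobes, after which the remaining lobes enlarge. The labels give liver as the tissue of both groups and name no genotype, strain, sex, age or sham operation. One free-text field of the 0 d arrays speaks of cells derived from fat and the same field of the 4 d arrays of DFAT cells. The measured RNA was that of liver. The hepatocyte gene Alb (albumin) had log2 levels of 14.77, 14.74 and 14.74 on the 4 d arrays and 14.69, 14.71 and 14.68 on the 0 d arrays. The fat cell gene Adipoq was at 3.09, 3.13 and 3.31 on the 4 d arrays and at 2.83, 2.97 and 5.38 on the 0 d arrays.

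A regenerating liver is rebuilt by several cell types. Hepatocytes, the parenchymal cells, make most of the tissue and divide first. Sinusoidal endothelial cells line the blood channels, stellate cells store vitamin A and turn into matrix-producing myofibroblasts when activated, and Kupffer cells are the resident macrophages. These non-parenchymal cells are known to divide later than hepatocytes in rodents. Endothelial cells and stellate cells make much of the basement membrane, a sheet of type IV collagen, laminin and nidogen. Times after the hepatocyte peak are therefore often treated as a non-parenchymal phase. Genes of these cells are given here beside the cell cycle genes that were still raised.

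Values are probe set intensities on the log2 scale, on which a difference of 1 is a 2-fold change. Of 18193 genes with 1 symbol, 13642 reached a log2 level of 5 on at least 3 arrays and were tested. Differences are 4 d minus 0 d with their standard error (SE) from 1 limma fit to all 33 arrays, in which the 2 groups hold 3 arrays each, and a gene is said to have risen or fallen where the Benjamini-Hochberg adjusted p over all tested genes was under 0.05. By that rule 257 genes rose (1.88% of those tested) and 133 fell (0.975%), 77 and 10 of them by at least 2-fold. Of the 257, 214 were also higher at 3 d than at 0 d, and of the 133, 102 were also lower. Among all tested genes 1398 were higher and 1490 lower at 3 d, and both contrasts share the 0 d arrays. Rises made up 65.9% of the calls, and 52.7% (217 rises and 195 falls) when all arrays were first shifted to a common median. The median difference of all tested genes was -0.0037. On 12.1% of tested genes all 4 d arrays lay above all 0 d arrays, and on 9.98% all lay below. The labels call the 3 arrays of a time biological replicates and say nothing more of the animals. The p-values rest on the spread between arrays of the same time, pooled over all 33 arrays and not taken from the 4 d and 0 d arrays alone. In whole tissue, a change in the number of cells of a type and a change in RNA per cell cannot be told apart.

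The promoters of the genes that the comparison turned on are shown first. Col4a1 and Col4a2 encode the main chains of type IV collagen and lie head to head on mouse chromosome 8. They are shown because both rose, and because their RefSeq start sites (GRCm38.p6) lie 21 bases apart on opposite strands. Each window runs from 250 bases before the start to 50 bases after it, at chr8:11312777-11313076 (minus strand) for Col4a1 and at chr8:11312555-11312854 (plus strand) for Col4a2, written 5′ to 3′ on the gene's own strand. Capitals mark the 78 bases that the 2 windows share, read from opposite strands.
Col4a1: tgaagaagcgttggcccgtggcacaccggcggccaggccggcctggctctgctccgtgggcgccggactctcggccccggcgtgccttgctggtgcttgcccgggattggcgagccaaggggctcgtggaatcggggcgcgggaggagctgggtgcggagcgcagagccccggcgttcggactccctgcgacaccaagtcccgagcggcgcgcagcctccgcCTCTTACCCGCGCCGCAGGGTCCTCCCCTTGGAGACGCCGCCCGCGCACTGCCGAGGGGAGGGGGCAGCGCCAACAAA
Col4a2: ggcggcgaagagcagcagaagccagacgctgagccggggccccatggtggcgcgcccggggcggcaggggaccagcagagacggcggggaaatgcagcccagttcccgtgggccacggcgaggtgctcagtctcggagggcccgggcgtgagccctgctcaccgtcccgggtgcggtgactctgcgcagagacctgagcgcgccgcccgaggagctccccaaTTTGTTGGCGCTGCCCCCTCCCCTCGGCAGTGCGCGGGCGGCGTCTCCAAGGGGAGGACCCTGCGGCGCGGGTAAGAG

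The mitosis genes Ccnb2, Cdk1 and Top2a, which rose, are shown for the sequence letters of the CCAAT box (CCAAT) and of the cell cycle homology region (TTTGAA), motifs known from promoters of late cell cycle genes. Capitals mark these letters on either strand, and no match of one motif overlaps a match of the other in these windows. The RefSeq windows (GRCm38.p6) are chr9:70421505-70421804 for Ccnb2, chr10:69352863-69353162 for Cdk1 and chr11:99024140-99024439 for Top2a, all on the minus strand.
Ccnb2: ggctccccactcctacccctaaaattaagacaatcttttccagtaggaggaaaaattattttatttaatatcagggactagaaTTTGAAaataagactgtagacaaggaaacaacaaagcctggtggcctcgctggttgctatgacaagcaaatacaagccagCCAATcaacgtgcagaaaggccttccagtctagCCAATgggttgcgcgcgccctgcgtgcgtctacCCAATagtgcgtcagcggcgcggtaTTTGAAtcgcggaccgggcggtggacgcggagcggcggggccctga
Cdk1: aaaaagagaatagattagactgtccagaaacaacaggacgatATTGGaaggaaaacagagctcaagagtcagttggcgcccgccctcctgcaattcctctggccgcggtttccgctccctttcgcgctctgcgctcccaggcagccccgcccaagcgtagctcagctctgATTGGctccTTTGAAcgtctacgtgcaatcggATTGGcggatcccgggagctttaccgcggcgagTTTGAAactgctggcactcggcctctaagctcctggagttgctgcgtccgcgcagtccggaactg
Top2a: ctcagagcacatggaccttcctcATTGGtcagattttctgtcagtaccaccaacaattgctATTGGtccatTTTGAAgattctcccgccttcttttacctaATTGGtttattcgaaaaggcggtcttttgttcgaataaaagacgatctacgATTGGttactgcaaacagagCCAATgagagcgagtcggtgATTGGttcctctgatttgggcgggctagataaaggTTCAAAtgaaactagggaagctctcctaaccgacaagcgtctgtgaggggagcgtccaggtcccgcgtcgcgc
Of the 88 mitosis genes tested, 73 were in the promoter table, with 82 promoters. CCAAT stood in 72.0% of these, against 37.2% of the 13946 promoters of all tested genes that could be matched. TTTGAA stood in 63.4% of them, against 12.5% of the promoters of tested genes, and both stood in 51.2% against 4.81%. Among the 14 promoters of the 13 matched mitosis genes that rose, 7 held CCAAT and 10 held TTTGAA. A match is a run of letters and no measured binding.

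The endothelial, stellate, macrophage, matrix, ligand and cycle lists held 45 of the 390 genes called at 4 d against 0 d, so most called genes lay outside them. Of 66 endothelial genes tested, 1 rose (1.52%) and none fell, and of 47 stellate cell genes 1 rose and 1 fell. Of 49 macrophage genes 5 rose (10.2%), of 145 matrix genes 14 rose (9.66%) and 2 fell, and of 162 cell cycle genes 19 rose (11.7%) and none fell, against 1.88% and 0.975% of all tested genes. The median difference was 0.17 over the endothelial genes, 0.18 over the stellate genes, 0.68 over the macrophage genes, 0.13 over the matrix genes and 0.42 over the cycle genes. At an unadjusted p under 0.05 in the same limma fit, 16 endothelial, 9 stellate, 31 macrophage, 42 matrix and 72 cycle genes were higher, beside 1269 of all 13642 tested genes (9.30%). By the adjusted test the endothelial and stellate genes were called at shares near that of all tested genes. The 16 of 66 endothelial and 9 of 47 stellate genes higher at the unadjusted threshold were shares above 9.30%. At that threshold 0 endothelial and 4 stellate genes were lower, beside 7.39% of all tested genes. Positive differences were seen for 51 of the 66 endothelial and 39 of the 47 stellate genes. A missed test does not show that such a marker did not differ, and the comparison is called 4 d against 0 d below.

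**Figure D1:**
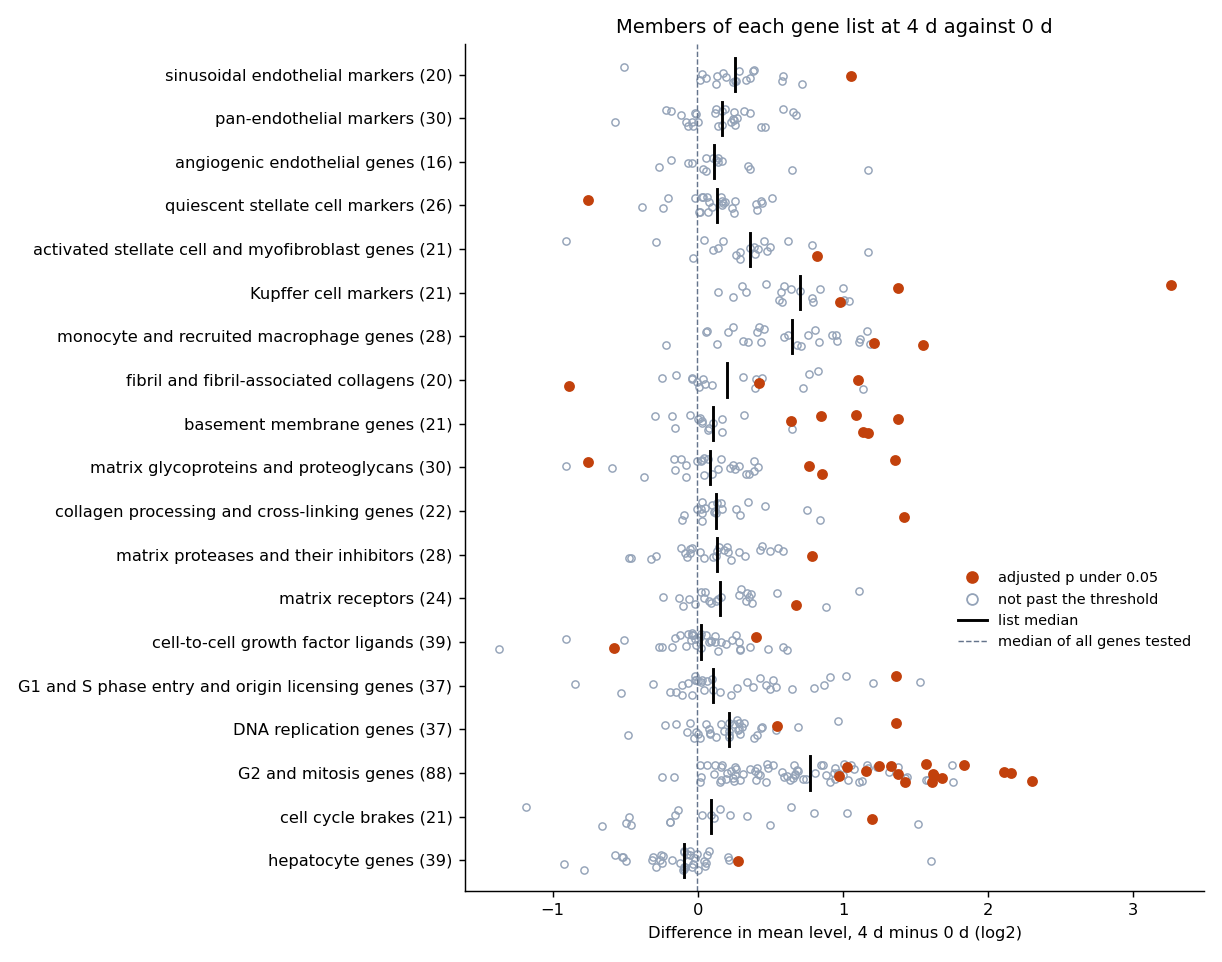
Each point is 1 gene of a list, with the number of genes tested in parentheses, and its position is the log2 difference, 4 d minus 0 d. Filled points passed the limma test, black bars are list medians and the dashed line is the median of all tested genes; the mitosis, Kupffer cell and monocyte medians lie furthest to the right, at 0.78, 0.71 and 0.65.

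Among the sinusoidal endothelial markers, 1 of 20 rose. That gene was Cd36, a fatty acid and scavenger receptor that hepatocytes and macrophages also make. Its log2 level was 9.61, 9.26 and 9.27 on the 4 d arrays, against 8.79, 7.53 and 8.65 on the 0 d arrays. All 4 d arrays lay above all 0 d arrays, with 0 d replicate 2 well below the other two, and the difference was 1.06 ± 0.27 (SE, adjusted p = 0.0299), a 2.08-fold change. Without 0 d replicate 2 the difference was 0.66 (adjusted p = 0.176), and without 4 d replicates 1, 2 and 3 it was 0.94, 1.12 and 1.11, none past the test. Of the 20 markers, 19 had a positive difference, with a median of 0.26, and 5 were higher at an unadjusted p under 0.05. The 4 d replicate 3 was the highest 4 d array for 15 of these 20 markers and for 24 of the 30 pan-endothelial ones, against 29.7% of all tested genes. Without it the sinusoidal median was 0.16, and without 0 d replicate 3 it was 0.32. The cause of that array's standing was not tested.

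The markers that define sinusoidal endothelium did not pass the test. Stab2, a hyaluronan scavenger receptor, was at 8.68, 8.53 and 8.85 on the 4 d arrays, against 8.38, 8.15 and 8.37 on the 0 d arrays (difference 0.39, adjusted p = 0.111). The 4 d arrays all lay above, by a margin smaller than the spread within either group. Lyve1, a hyaluronan receptor, was at 7.42, 7.92 and 7.61 on the 4 d arrays, against 6.47, 7.63 and 6.71 on the 0 d arrays, where replicate 2 reached into the 4 d range (difference 0.72, adjusted p = 0.449). Clec4g, a lectin of these cells, was at 9.75, 9.51 and 10.12 on the 4 d arrays and at 9.58, 9.08 and 9.65 on the 0 d arrays, with overlap (difference 0.36, adjusted p = 0.339). Wnt2, a ligand that sinusoidal endothelium sends to hepatocytes, had a difference of 0.59 (adjusted p = 0.167). Stab1, Gata4, which specifies sinusoidal endothelium, and F8, the clotting factor, had differences of 0.13, 0.03 and 0.12.

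None of the 30 pan-endothelial markers rose or fell by the limma test. Cdh5, the cadherin of endothelial junctions, came close. It was at 7.53, 7.36 and 7.60 on the 4 d arrays, against 6.93, 6.65 and 7.14 on the 0 d arrays, without overlap (difference 0.59, adjusted p = 0.0566). Ramp2, a receptor partner for adrenomedullin, had a difference of 0.46 (adjusted p = 0.0548), and Icam2, an adhesion molecule, one of 0.65 (adjusted p = 0.0851). The VEGF receptors Kdr and Flt1 stood at differences of -0.08 and -0.01, Pecam1 at 0.25, Eng at -0.07 and Vwf at -0.57, each with overlapping arrays. At an unadjusted p under 0.05, 7 of the 30 were higher and none lower. Of 16 angiogenic genes tested out of 20 listed, none passed the test. The remaining 4, which include the tip cell genes Esm1 and Cxcr4, were below the level filter. Without 0 d replicate 3, 3 of the 66 endothelial genes rose and their median difference was 0.27. Without 4 d replicate 3 none rose and the median was 0.11.

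Against 3 d, 3 of the 66 endothelial genes had risen by 4 d, a share near the 3.03% of all tested genes. Tie1, an endothelial receptor kinase, averaged 5.95 at 4 d and 5.32 at 3 d (difference 0.64, adjusted p = 0.0118). Robo4, a guidance receptor that keeps vessels stable, averaged 6.66 at 4 d and 6.25 at 3 d, with 6.69 at 0 d. Sox17, an arterial transcription factor, averaged 5.96 at 4 d and 5.57 at 3 d, with 5.84 at 0 d. Set against 0 d, Robo4 differed by -0.03 and Sox17 by 0.13 at 4 d, and none of the 3 genes, Tie1 included, passed the test.

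The stellate cell genes held 1 that fell and 1 that rose. Ecm1, a secreted matrix protein listed as a marker of quiescent stellate cells and also made by hepatocytes, was at 8.25, 8.67 and 8.62 on the 4 d arrays. On the 0 d arrays it was at 9.06, 9.31 and 9.44. Each 4 d array lay below each 0 d array, and Ecm1 fell by 0.76 ± 0.14 (SE, adjusted p = 0.00362). Tagln2, an actin-binding protein of many cell types listed with activated stellate cells, was at 8.81, 8.50 and 8.69 on the 4 d arrays, against 7.67, 7.89 and 7.98 on the 0 d arrays. It rose by 0.82 ± 0.18 (SE, adjusted p = 0.015), without overlap. The call of Tagln2 was lost without 4 d replicate 1 (adjusted p = 0.0806), without 0 d replicate 1 (0.087) and when its probe sets were averaged (difference 0.39, adjusted p = 0.162).

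The genes that usually define stellate cells did not pass the test. Lrat, which makes the retinyl esters they store, had a difference of 0.08, Reln, a secreted glycoprotein of these cells, one of 0.17, and Des, their intermediate filament, one of -0.02. Pdgfrb, the receptor for their main mitogen, was at 6.40, 7.09 and 6.99 on the 4 d arrays and at 5.85, 6.42 and 6.91 on the 0 d arrays, with overlap (difference 0.43, adjusted p = 0.485). Acta2, the smooth muscle actin of myofibroblasts, was at 6.85, 8.06 and 7.63 on the 4 d arrays, against 6.80, 6.29 and 9.13 on the 0 d arrays. The highest of all 6 values of Acta2 was thus a 0 d array, replicate 3 (difference 0.11, adjusted p = 0.951). Tagln, Timp1 and Vim, further activation genes, had differences of 0.36, 0.50 and 1.17, none past the test.

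The 0 d replicate 3 stood apart for these genes and for several other lists. It was the highest 0 d array for 20 of the 21 activated stellate genes (95.2%), against 31.2% of all tested genes, and for 6 of 7 smooth muscle markers, 5 of 7 adipocyte markers and 21 of 30 matrix glycoproteins. The same held for 9 of 10 cholangiocyte markers, 22 of 30 pan-endothelial markers, 18 of 26 quiescent stellate markers, 16 of 22 collagen processing genes and 60 of 88 mitosis genes. The summed linear intensity of the 7 smooth muscle markers ran between 1126 and 1472 on the 4 d arrays and between 1095 and 2000 on the 0 d arrays. Myh11, a smooth muscle myosin, was at 6.53 on that array and at 4.99 and 4.80 on the other 0 d arrays. Leaving it out moved the median difference of the activated stellate genes to 0.70, against 0.36 with it, and 2 of the 21 then rose. Over all 47 stellate genes the median became 0.37, against 0.18 with it. The part of smooth muscle, or of anything else carried by that array, in these values was not tested.

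**Figure D2:**
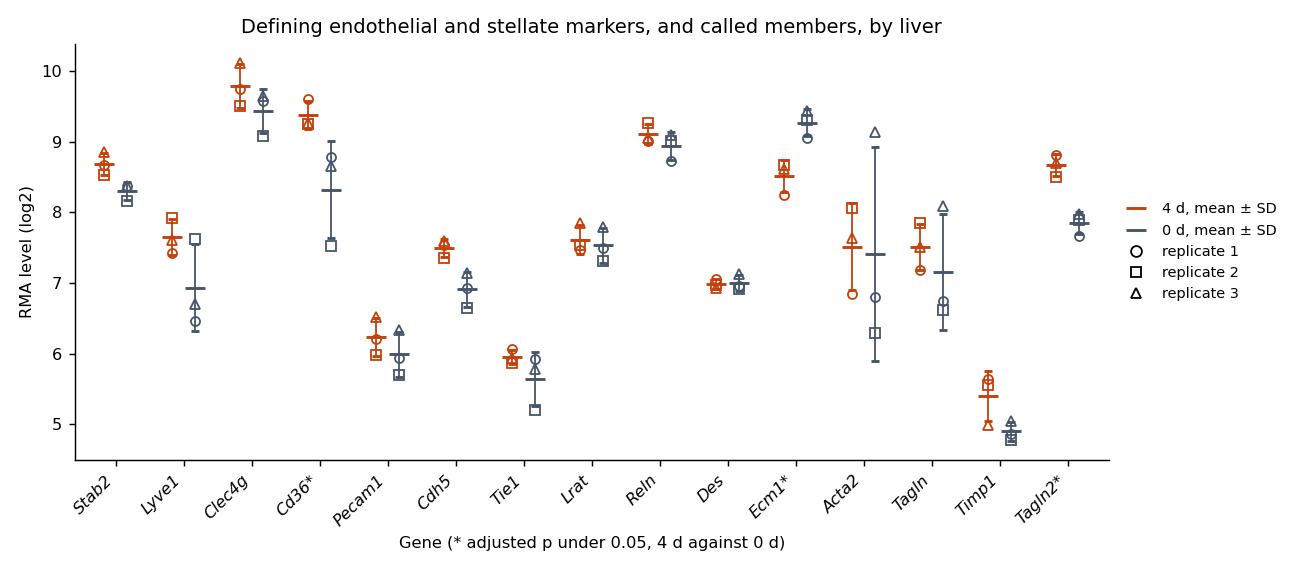
Log2 levels on each array of defining endothelial and stellate markers and of the called members of those lists, with the 4 d arrays left of the 0 d arrays, a symbol shape for each replicate, bars at the mean ± SD (n = 3) and an asterisk for genes past the limma test. The 4 d and 0 d arrays overlap for most markers, and 0 d replicate 3 carries the highest Acta2 value, 9.13.

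Macrophage genes were the non-parenchymal markers that differed most. Of 21 Kupffer cell markers tested, 3 rose, none fell, all 21 had a positive difference and 15 had every 4 d array above every 0 d array (12.1% of all tested genes). Marco, a scavenger receptor that binds bacteria, was at 9.82, 7.64 and 8.01 on the 4 d arrays, against 4.76, 5.39 and 5.55 on the 0 d arrays. The groups lay more than 2 log2 units apart, with 4 d replicate 1 highest, and Marco rose by 3.26 ± 0.63 (SE, adjusted p = 0.00546), a 9.57-fold change. Without 4 d replicate 1 the difference was 2.59 (adjusted p = 0.05).

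Cd5l, a secreted protein that keeps macrophages alive, was at 12.12, 11.30 and 11.41 on the 4 d arrays, against 10.24, 10.02 and 10.42 on the 0 d arrays. It rose by 1.38 ± 0.37 (SE, adjusted p = 0.0421), without overlap, and that call was lost when any 1 of the 6 arrays was left out. Il18bp, which neutralises interleukin 18, was at 8.35, 7.53 and 7.77 on the 4 d arrays, against 7.05, 6.65 and 7.01 on the 0 d arrays, and rose by 0.98 ± 0.23 (SE, adjusted p = 0.0199). The genes that best mark resident Kupffer cells were near the threshold or short of it. Timd4, a receptor for dying cells, was at 7.26, 6.52 and 6.54 on the 4 d arrays, against 5.90, 5.29 and 5.99 on the 0 d arrays (difference 1.04, adjusted p = 0.0738). Vsig4, a complement receptor, had a difference of 1.00 (adjusted p = 0.0837) and Clec4f, a lectin of mouse Kupffer cells, one of 0.64 (adjusted p = 0.132), both without overlap. Cd68 and the complement gene C1qb had differences of 1.01 (adjusted p = 0.0555) and 0.99 (adjusted p = 0.0566).

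Of 28 monocyte and recruited macrophage genes tested, 2 rose, none fell, and the median difference was 0.65. Lgals1, a galectin also made by stellate cells, was at 10.33, 10.41 and 9.92 on the 4 d arrays, against 8.70, 7.995 and 9.31 on the 0 d arrays. It rose by 1.55 ± 0.38 (SE, adjusted p = 0.0257), a 2.93-fold change without overlap. Lgals3, a galectin of phagocytes, was at 7.93, 7.55 and 7.29 on the 4 d arrays, against 6.40, 6.10 and 6.62 on the 0 d arrays, and rose by 1.22 ± 0.30 (SE, adjusted p = 0.0257). Markers of inflammatory monocytes did not pass the test. Ccr2, the receptor that draws monocytes out of the marrow, was at 6.08, 6.18 and 6.37 on the 4 d arrays and at 5.88, 6.32 and 6.24 on the 0 d arrays (difference 0.06, adjusted p = 0.851), and Itgam was below the level filter.

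The number of macrophage genes called changed with the arrays. The 4 d replicate 1 was the highest 4 d array for 19 of the 21 Kupffer markers (90.5%) and 22 of the 28 monocyte genes (78.6%), against 37.9% of all tested genes. Without it the median difference was 0.51 over the Kupffer markers and 0.50 over the monocyte genes, and none of the 49 macrophage genes rose, while the genes of the whole table that rose numbered 97 without it and 257 with it. Over all 49 the median was 0.51 without it, against 0.68 with it. Lyz2, the macrophage lysozyme, was at 10.54 on that array and at 9.11 and 9.48 on the other 4 d arrays, against 8.86, 8.12 and 8.81 on the 0 d arrays. Without 0 d replicate 1, 0 d replicate 2 or 4 d replicate 2, 1, 1 and 2 of the 49 genes rose. The same 4 d replicate 1 was the lowest 4 d array for 13 of 14 male-biased liver genes. The cause of its standing was not tested.

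**Figure D3:**
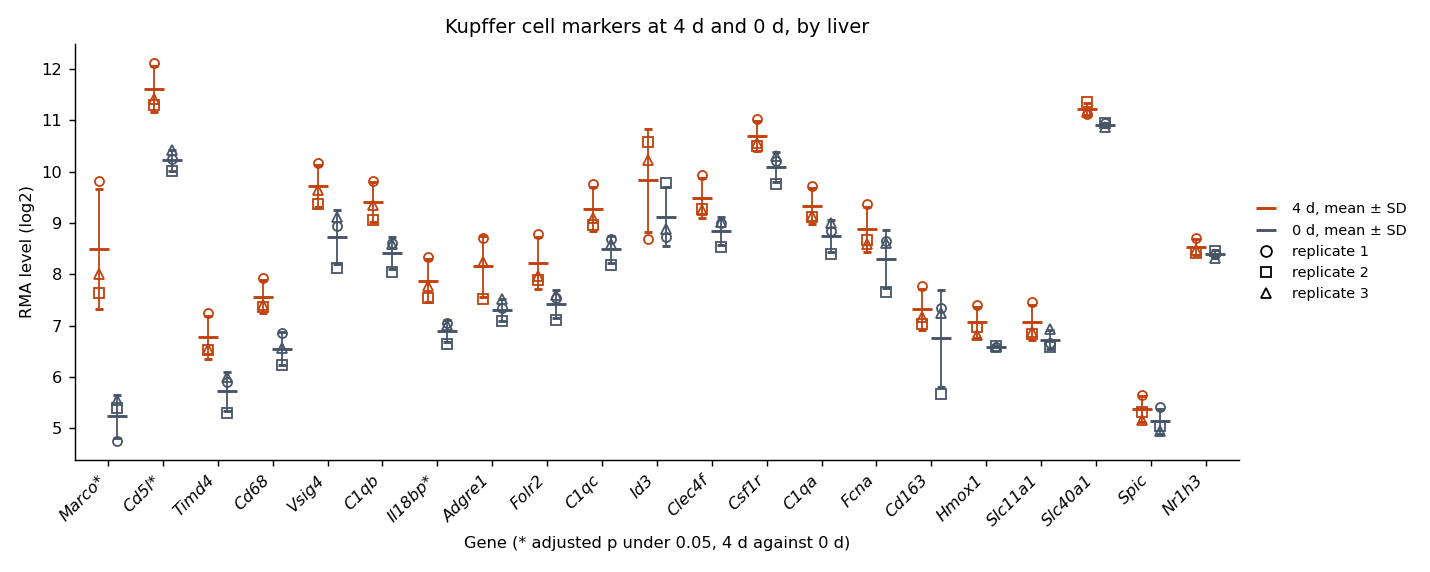
Log2 levels of the 21 Kupffer cell markers by array, 4 d left of 0 d, with a symbol shape for each replicate, bars at the mean ± SD (n = 3) and an asterisk for genes past the limma test. Marco shows the widest gap, and 4 d replicate 1 is the highest 4 d array for 19 of the 21 genes.

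Basement membrane genes made up the largest share of called genes among the matrix lists, with 6 of 21 tested (28.6%) higher at 4 d and none lower. Col4a1 was at 8.72, 9.07 and 8.77 on the 4 d arrays, against 7.14, 7.73 and 7.55 on the 0 d arrays. It rose by 1.38 ± 0.22 (SE, adjusted p = 0.00112), a 2.60-fold change. Col4a2, whose promoter window overlaps that of Col4a1 as printed above, was at 8.49, 8.84 and 8.30 on the 4 d arrays, against 7.19, 7.57 and 7.47 on the 0 d arrays. It rose by 1.14 ± 0.13 (SE, adjusted p = 6.93e-05), a 2.20-fold change. For both genes the groups stood well apart. Col4a1 averaged 9.02 at 0.25 d, 8.57 at 3 d and 8.85 at 4 d, so its highest mean came before 4 d. Col4a2 averaged 7.84, 8.13 and 8.54 at those times and was highest at 4 d.

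Nid1, the nidogen that links collagen IV to laminin, was at 8.19, 8.37 and 8.53 on the 4 d arrays, against 6.91, 7.04 and 7.62 on the 0 d arrays, and rose by 1.17 ± 0.28 (SE, adjusted p = 0.02). Sparc, a collagen IV binding protein, was at 9.44, 9.92 and 9.71 on the 4 d arrays, against 8.29, 8.56 and 8.96 on the 0 d arrays, and rose by 1.09 ± 0.19 (SE, adjusted p = 0.00277). All 4 d arrays exceeded all 0 d arrays for both. Nid1 averaged 8.05 at 0.25 d, 8.71 at 3 d and 8.36 at 4 d, and Sparc averaged 8.35, 9.31 and 9.69 at those times. Pxdn, the peroxidase that cross-links collagen IV, rose by 0.85 ± 0.17 (SE, adjusted p = 0.00574), and Lama1, a laminin chain, rose by 0.64 ± 0.17 (SE, adjusted p = 0.0343). The median over the 21 genes was 0.10, so that the list held these 6 beside genes near 0. Col18a1, the collagen that yields endostatin, was at 11.18, 11.34 and 11.34 on the 4 d arrays and at 11.14, 11.27 and 11.25 on the 0 d arrays (difference 0.07). It had risen by 0.64 relative to 3 d (adjusted p = 0.00386).

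Outside the basement membrane, collagen genes were mixed. Of 20 fibril and fibril-associated collagens tested, 2 rose and 1 fell. Col5a2, a chain of the collagen that starts fibrils, was at 7.21, 7.63 and 7.58 on the 4 d arrays, against 6.19, 6.14 and 6.77 on the 0 d arrays, and rose by 1.11 ± 0.27 (SE, adjusted p = 0.0238). Col15a1, a collagen next to basement membranes, was at 5.46, 5.32 and 5.39 on the 4 d arrays, against 4.86, 5.02 and 5.02 on the 0 d arrays, and rose by 0.42 ± 0.08 (SE, adjusted p = 0.00368). The 4 d arrays of both genes lay above all 0 d arrays. Col27a1, a cartilage collagen, was at 7.89, 7.75 and 7.68 on the 4 d arrays, against 9.15, 8.03 and 8.79 on the 0 d arrays, and fell by 0.89 ± 0.23 (SE, adjusted p = 0.0334).

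The main interstitial collagens did not pass the test. Col3a1 was at 10.18, 11.24 and 10.41 on the 4 d arrays, against 8.65, 9.21 and 10.56 on the 0 d arrays, where replicate 3 lay among the 4 d values (difference 1.14, adjusted p = 0.391). Col1a1 and Col1a2 had differences of 0.44 (adjusted p = 0.38) and 0.77 (adjusted p = 0.175), and 4 d replicate 2 was their highest array. Pcolce, which speeds the trimming of procollagen, was the 1 gene of 22 in collagen processing and cross-linking that rose. It was at 7.83, 8.28 and 8.37 on the 4 d arrays, against 6.52, 6.66 and 7.03 on the 0 d arrays, a rise of 1.42 ± 0.19 (SE, adjusted p = 0.000221) without overlap.

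Of 30 glycoproteins and proteoglycans tested, 3 rose and 1 fell, which was Ecm1 again, a member of both this list and the stellate list. Emilin1, an elastic fibre protein, was at 7.34, 7.53 and 7.31 on the 4 d arrays, against 6.39, 6.50 and 6.72 on the 0 d arrays, and rose by 0.86 ± 0.12 (SE, adjusted p = 0.000347). Smoc2, a calcium-binding matrix protein related to Sparc, was at 6.72, 7.94 and 7.09 on the 4 d arrays, against 5.91, 5.69 and 6.06 on the 0 d arrays, and rose by 1.36 ± 0.36 (SE, adjusted p = 0.0383). The spread of the 4 d arrays was wide for Smoc2 and narrow for Emilin1. Tgfbi, a protein induced by TGF-beta, rose by 0.76 ± 0.21 (SE, adjusted p = 0.0457). Among 28 proteases and inhibitors Adamts9, a proteoglycan-cleaving protease, rose by 0.79 ± 0.18 (SE, adjusted p = 0.0175). Among 24 matrix receptors Sdc3, a heparan sulphate proteoglycan of the cell surface, rose by 0.68 ± 0.17 (SE, adjusted p = 0.0326).

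The count of matrix genes that rose, 14 of 145, became 11, 7 and 9 without 4 d replicates 1, 2 and 3, and 6, 8 and 14 without 0 d replicates 1, 2 and 3. Col4a1, Col4a2, Sparc, Pcolce, Emilin1, Col15a1 and Ecm1 passed the test in all 6 of those fits. Pxdn lost the call in 1 of them, without 0 d replicate 1, Adamts9 in 3, Nid1 and Col5a2 in 4, Lama1, Smoc2, Sdc3 and Col27a1 in 5 and Tgfbi in all 6. In the limma test of 4 d against 3 d, 4 of the 145 matrix genes had risen, a share near the 3.03% of all tested genes. None had fallen, beside 3.23%. The 4 were Col18a1, Col15a1, Ltbp4, which holds latent TGF-beta in the matrix, and Loxl3, a collagen cross-linking oxidase.

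**Figure D4:**
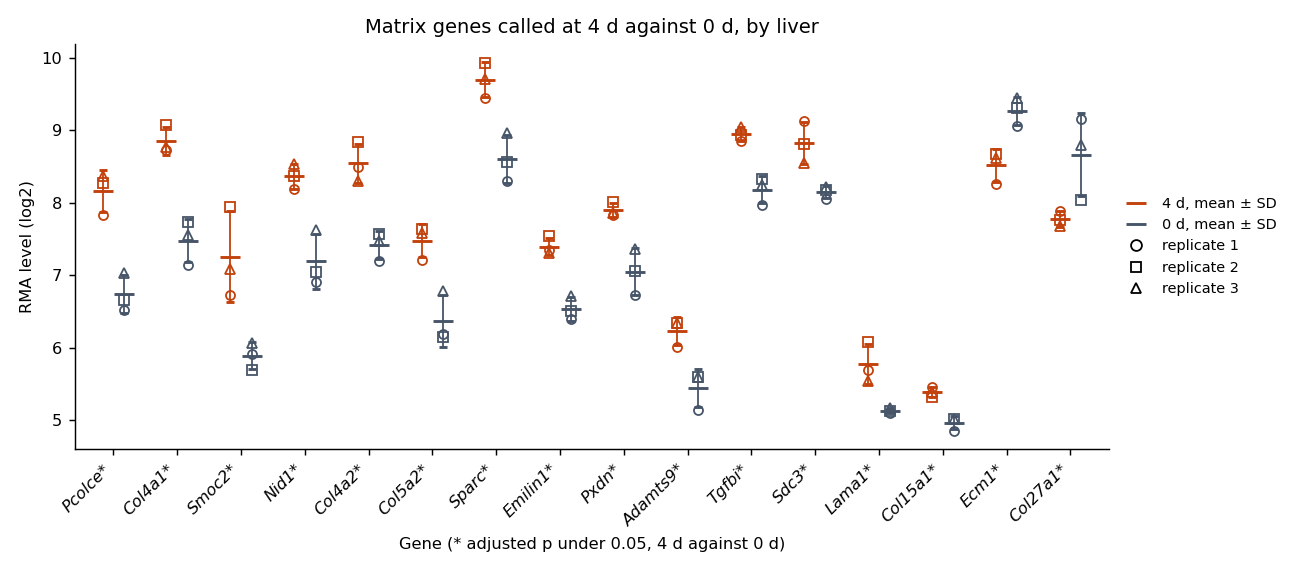
Log2 levels of the 16 matrix genes past the limma test by array, 4 d left of 0 d, with a symbol shape for each replicate and bars at the mean ± SD (n = 3). The first 14 genes are higher on every 4 d array than on every 0 d array, and Ecm1 and Col27a1 are lower.

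Of 39 growth factor ligands tested by which liver cells signal to each other, 1 rose and 1 fell, with a median difference of 0.02. Gdf2 (BMP9), which stellate cells send to endothelium, was at 8.06, 8.05 and 7.80 on the 4 d arrays, against 7.44, 7.66 and 7.59 on the 0 d arrays, and rose by 0.40 ± 0.11 (SE, adjusted p = 0.0476). Fgf1, an acidic fibroblast growth factor, was at 8.55, 8.30 and 8.32 on the 4 d arrays, against 9.24, 8.52 and 9.14 on the 0 d arrays, and fell by 0.58 ± 0.15 (SE, adjusted p = 0.0361). The groups did not overlap for Gdf2, and they did for Fgf1, whose 0 d replicate 2 reached into the 4 d range. Gdf2 lost its call in 9 of 15 alternative settings and Fgf1 in 7. Hgf, the hepatocyte growth factor of stellate cells, had a difference of 0.16 (adjusted p = 0.676) and Bmp2, an endothelial ligand, one of -0.51 (adjusted p = 0.326).

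Among the lists, the largest number of called genes at 4 d belonged to mitosis. Of 88 G2 and mitosis genes tested, 16 rose (18.2%), none fell, 86 had a positive difference and 68 had all 4 d arrays above all 0 d arrays, with a median difference of 0.78. On 32 of the 88 the mean at 0 d was under the log2 level of 5 that a gene had to reach on some arrays to be tested, so these genes were tested through the times at which they were higher. At an unadjusted p under 0.05, 55 were higher and 1, Pttg1 with a difference of -0.25, lower, beside 9.30% and 7.39% of all tested genes. Ccnb2, a cyclin of mitotic entry, was at 7.34, 8.11 and 7.72 on the 4 d arrays, against 5.04, 5.32 and 5.93 on the 0 d arrays, and rose by 2.30 ± 0.62 (SE, adjusted p = 0.0419), a 4.92-fold change. Cdk1, the kinase that cyclin B activates, was at 8.50, 8.54 and 8.40 on the 4 d arrays, against 6.87, 6.78 and 7.53 on the 0 d arrays, and rose by 1.43 ± 0.38 (SE, adjusted p = 0.0389). The 4 d arrays of both genes lay above all 0 d arrays, of which replicate 3 was the highest.

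Mki67, the proliferation antigen, was at 7.43, 7.99 and 7.60 on the 4 d arrays, against 5.13, 5.23 and 6.34 on the 0 d arrays, and rose by 2.11 ± 0.49 (SE, adjusted p = 0.0192). Cep55, which acts in the final cut between daughter cells, was at 5.77, 6.25 and 6.13 on the 4 d arrays, against 3.25, 4.09 and 4.35 on the 0 d arrays, and rose by 2.16 ± 0.33 (SE, adjusted p = 0.000837). Top2a, the topoisomerase that untangles chromosomes, was at 6.88, 7.13 and 6.98 on the 4 d arrays, against 4.89, 5.17 and 6.05 on the 0 d arrays, and rose by 1.63 ± 0.37 (SE, adjusted p = 0.016). None of the 3 genes had overlapping groups. All 0 d values of Cep55 lay under that level of 5, and it was tested through its higher values at other times. Stmn1, which destabilises microtubules, rose by 1.68 (adjusted p = 0.00891), and Pbk, a mitotic kinase, by 1.84 (adjusted p = 0.02). Bub1, a checkpoint kinase, rose by 1.62, Cdca5 (sororin), which guards sister chromatid cohesion, by 1.61, and Birc5 (survivin) by 1.57. Aspm, Ncapg2, Shcbp1, Cdca8, Mad2l1 and Trip13 rose by 0.98 to 1.38. Several familiar mitotic genes were not past the test, among them Ccna2 with a difference of 1.59 (adjusted p = 0.069), Aurkb with 1.18 (0.139), Plk1 with 1.11 (0.148) and Aurka with 0.98 (0.213). Foxm1, a transcription factor of the late cell cycle, had a difference of -0.17.

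The number of mitosis genes called rested on single arrays more than their direction did. Without 4 d replicates 1, 2 and 3 the count of 16 became 5, 2 and 10, and without 0 d replicates 1, 2 and 3 it became 1, 4 and 17, while the median difference stayed between 0.65 and 0.88. Cep55 passed the test in all 6 of those fits. Stmn1 lost the call in 1 of them, Mki67, Top2a and Cdca5 in 3, Pbk in 4 and Ccnb2 and Bub1 in 5, each of these 7 genes without 0 d replicate 1. Cep55 was the 1 mitosis gene that rose without that array, so Cdk1 and the other called members also lost the call there. The 0 d replicate 3 was the highest 0 d array for 60 of the 88 genes, and 4 d replicate 2 the highest 4 d array for 57.

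Few genes of the earlier cycle steps passed the test. Of 37 genes of G1, S phase entry and origin licensing, 1 rose. That gene was Mcm6, a subunit of the replicative helicase, at 8.47, 7.81 and 7.58 on the 4 d arrays, against 6.31, 6.28 and 7.18 on the 0 d arrays (1.36 ± 0.36 SE, adjusted p = 0.0371). Of 37 DNA replication genes, 2 rose. Uhrf1, which copies DNA methylation marks, was at 6.74, 5.55 and 5.66 on the 4 d arrays, against 4.37, 4.72 and 4.78 on the 0 d arrays (1.36 ± 0.35 SE, adjusted p = 0.0321). The second was Hells, a chromatin remodeller, with a rise of 0.54 (adjusted p = 0.0475), a call lost in 13 of 15 alternative settings and in each of the 6 fits with an array left out. The 4 d arrays lay above the 0 d arrays for all 3 genes, and 4 d replicate 1 was the highest array for each. It was the highest 4 d array for 27 of the 37 G1 and S phase entry genes (73.0%) and 29 of the 37 replication genes (78.4%), against 37.9% of all tested genes, and without it no gene of either list rose. Pcna, the sliding clamp, had a difference of 0.41 (adjusted p = 0.302). Ccnd1, the cyclin of G1, was at 10.29, 9.17 and 9.21 on the 4 d arrays, against 7.81, 8.25 and 8.02 on the 0 d arrays, a difference of 1.53 short of the threshold (adjusted p = 0.0544).

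Among 21 cell cycle brakes tested, Cdkn2c (p18), an inhibitor of the G1 kinases, was the 1 gene that rose. It was at 8.68, 8.76 and 8.42 on the 4 d arrays, against 7.41, 7.30 and 7.54 on the 0 d arrays, a rise of 1.20 ± 0.26 (SE, adjusted p = 0.0137) without overlap. The call was lost without 4 d replicate 1, 4 d replicate 2 or 0 d replicate 1. Cdkn1a (p21) was at 6.98, 7.89 and 7.17 on the 4 d arrays and at 6.15, 6.32 and 7.18 on the 0 d arrays, with overlap (difference 0.80, adjusted p = 0.395). Cdkn1b (p27) had a difference of -0.19.

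The 4 d values stood on the falling side of the cycle. Against 3 d, 96 of the 162 cycle genes had fallen by 4 d and none had risen, beside 3.23% and 3.03% of all tested genes. Of the 88 mitosis genes 56 had fallen, with a median of -1.28. Mki67 averaged 9.27 at 2 d, 9.60 at 3 d, 7.67 at 4 d and 5.83 at 7 d, and its difference of 4 d minus 3 d was -1.93 (adjusted p = 0.0183). Cdk1 averaged 9.95, 10.03, 8.48 and 7.57 at the same 4 times. In medians of the differences from 0 d, the mitosis list stood at 0.81 at 1.5 d, 2.10 at 2 d, 2.01 at 3 d, 0.78 at 4 d and 0.13 at 7 d. The replication list had its highest median, 1.39, at 2 d and stood at 0.21 at 4 d.

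The median difference of the Kupffer markers from 0 d was 0.42 at 1 d, -0.05 at 1.5 d, -0.21 at 2 d, 0.65 at 3 d, 0.71 at 4 d, 0.90 at 7 d and 0.63 at 14 d. Marco had its highest mean, 8.92, at 1 d and averaged 7.61 at 2 d, 8.57 at 3 d, 8.49 at 4 d, 8.49 at 7 d and 7.60 at 14 d. In the limma test of 4 d against 3 d, no Kupffer marker passed in either direction, and Ccl9, a chemokine, was the 1 monocyte gene that had fallen (difference -1.15, adjusted p = 0.019). Comparisons against 0 d at different times share the 0 d arrays.

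**Figure D5:**
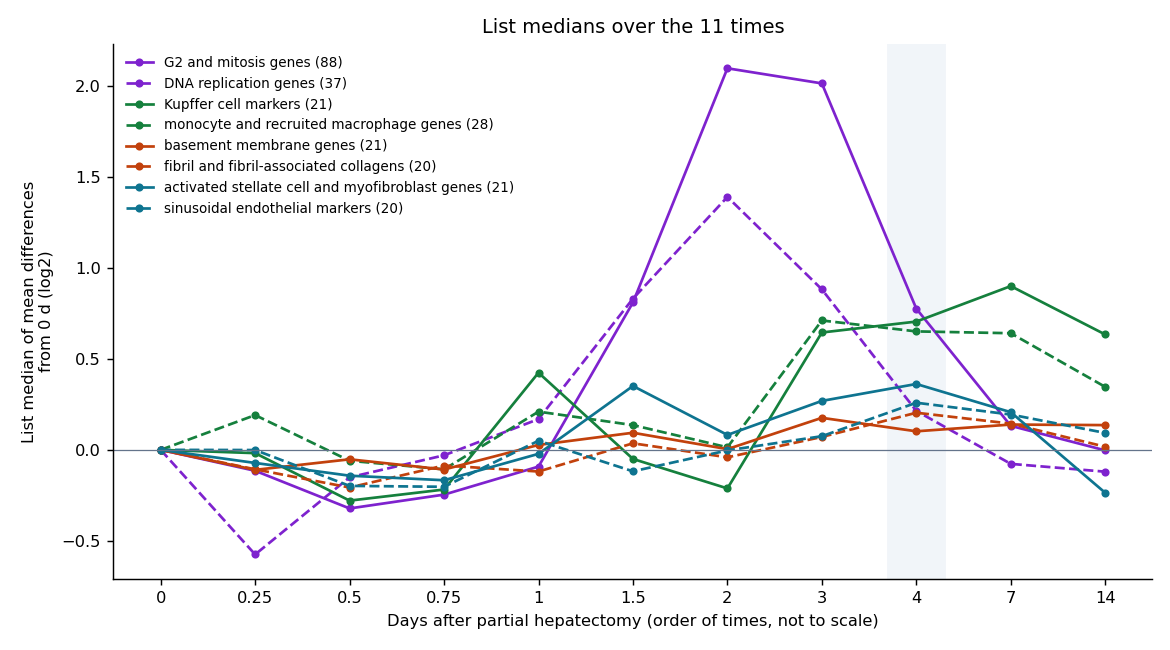
Median over each list of the log2 differences between the mean at each time and the mean at 0 d, with the 11 times in days from low to high, evenly spaced and not to scale, and 4 d shaded. The mitosis list peaks at 2 d with 2.10 and has a median of 0.78 at 4 d, while the Kupffer list stands at 0.71 at 4 d and 0.90 at 7 d.

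The 7 d arrays gave no gene past the limma test against 4 d, with 0% called in either direction and 1263 of 13642 genes at an unadjusted p under 0.05. Against 0 d, 17 genes were higher and 8 lower at 7 d.

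Of 39 hepatocyte genes tested, 1 rose (2.56%), beside 1.88% of all tested genes. Hpx, which binds free haem in plasma, was at 14.35, 14.27 and 14.31 on the 4 d arrays, against 13.96, 14.13 and 14.01 on the 0 d arrays (0.28 ± 0.08 SE, adjusted p = 0.0449). Its call was lost in 8 of 15 alternative settings, 5 of them fits with an array left out. Ttr and Hnf4a, a carrier of thyroid hormone and a master regulator of hepatocytes, had differences of 0.08 and -0.09. The median over the list was -0.09. Of 14 male-biased liver genes, 1 fell. Ugt2b38, a steroid-conjugating enzyme, was at 6.51, 7.90 and 8.26 on the 4 d arrays, against 10.09, 9.84 and 8.87 on the 0 d arrays, and fell by 2.05 ± 0.47 (SE, adjusted p = 0.0165) without overlap. The lymphocyte, cholangiocyte, mesothelial, erythroid, smooth muscle and adipocyte lists held no gene past the limma test.

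Genes past the threshold without overlap of the groups were ranked by difference, with clone and model names left out. The 8 highest of these were Lcn2, Saa2, Prtn3, Marco, Orm2, Saa1, Ly6d and Ccnb2. Lcn2 (lipocalin 2), which keeps iron from bacteria, was at 11.40, 9.53 and 11.25 on the 4 d arrays, against 5.84, 4.64 and 6.27 on the 0 d arrays, and rose by 5.15 ± 0.88 (SE, adjusted p = 0.00218), a 35.5-fold change. Saa1, a serum amyloid A, was at 14.03, 12.81 and 13.94 on the 4 d arrays, against 11.20, 10.09 and 10.46 on the 0 d arrays, and rose by 3.01 ± 0.50 (SE, adjusted p = 0.00199). Both genes had no overlap and their lowest 4 d array was replicate 2. Saa2 and Orm2 rose by 3.91 and 3.22. None of the 8 leading genes had its highest mean at 4 d. Lcn2 averaged 13.47 at 0.5 d and 10.73 at 4 d. Saa1 and Saa2 averaged 14.51 and 14.23 at 0.75 d, and 13.59 and 12.51 at 4 d. Orm2 averaged 12.62 at 1 d and 11.14 at 4 d. Saa2 lost its call without 4 d replicate 1 and without 0 d replicate 1, and Orm2 in 5 of 15 alternative settings, 4 of them fits with an array left out. Saa1 and Saa2 are nearly identical, so their probe sets may share signal.

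Prtn3, a serine protease of neutrophil granules, was at 9.19, 8.16 and 8.78 on the 4 d arrays, against 4.65, 5.41 and 5.14 on the 0 d arrays, and rose by 3.65 ± 0.66 (SE, adjusted p = 0.00311). It was the 1 gene of 12 neutrophil markers tested that rose. S100a8 and S100a9, the main calcium-binding proteins of neutrophils, had differences of 1.71 (adjusted p = 0.196) and 1.81 (adjusted p = 0.0788), Elane one of 0.20, and Mpo was below the level filter. The summed linear intensity of the 12 markers ran between 782 and 1212 on the 4 d arrays and between 415 and 487 on the 0 d arrays. Without Prtn3 it ran between 496 and 627 on the 4 d arrays and between 380 and 445 on the 0 d arrays, and the median difference of the 12 was 0.14. Ly6d, a small surface protein of epithelia and B cell precursors, was at 8.48, 8.23 and 8.04 on the 4 d arrays, against 6.15, 5.68 and 5.63 on the 0 d arrays, and rose by 2.43 ± 0.46 (SE, adjusted p = 0.0048).

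Among the genes that fell most after Ugt2b38 were Cnmd (chondromodulin), an inhibitor of vessel growth, at 5.70, 5.73 and 5.99 on the 4 d arrays, against 7.70, 7.05 and 7.23 on the 0 d arrays. It fell by 1.52 ± 0.39 (SE, adjusted p = 0.0328) without overlap, and lost the call when any 1 of the 6 arrays was left out. Mpp4, a scaffold protein, fell by 1.34, Pcp4l1 by 1.05, Pde5a, the phosphodiesterase that ends cyclic GMP signals, by 1.03 and Prox1os, antisense to the hepatocyte and lymphatic regulator Prox1, by 1.01. For Mpp4, Pcp4l1 and Pde5a the 0 d replicate 3 was the highest array.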

How the data were processed

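Per the labels' protocols, Trizol was used to isolate liver RNA, and 5 µg of it entered 3′ amplification and labelling for Affymetrix mouse 430 2.0 arrays. The authors deposited log2 intensities made with RMA, per the submitters' processing notes, and its version and settings are not given in the sources used here. No depth applies to arrays, so the number of arrays limits the precision.

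Of 45101 probe sets, 64 were controls, 34945 had 1 gene symbol, 932 several and 9160 none. Genes were named from the platform annotation, and 34741 probe sets were matched to RefSeq by Entrez number. Each of 18193 genes was represented by its brightest probe set on average over 33 arrays, and 4551 were dropped for not reaching a log2 value of 5 on 3 arrays. Array medians ran from 5.32 to 5.38. The deposited values were not normalized again.

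One mean per time was fitted with limma 3.58.1 in R 4.3.3 (lmFit, contrasts.fit and eBayes, 22 residual and 3.69 prior degrees of freedom), with 2-sided tests of 4 d against 0 d, 3 d and 7 d and Benjamini-Hochberg adjustment over 13642 genes. Groups came from the sample titles. The members of the comparison and the 27 gene lists, with 743 genes of which 694 were on the array under their symbol, were chosen with earlier results of these data known, so the lists were described by counts and medians and not tested. Genes were named by rule: the 8 highest and 8 lowest differences past the threshold without overlap of the groups, up to 8 called members of each list, the defining markers of each cell type, and list members needed to account for those that did not pass. Clone and model names were left out of the 8 highest and 8 lowest. In the mitosis list every called member was named, also beyond the first 8. Genes of the lists without a match were not analysed here.

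The script was tested on simulated data with 200 of 13642 genes changed between 4 d and 0 d. It recovered 56.7%, 92.5% and 100% of changes of 0.5, 1 and 2 log2 units, with 5 false among 171 calls. The simulated noise was independent between genes, without the deviations that genes of a list shared on single arrays here. These rates therefore test the script and need not hold for the measured arrays. Replicate numbers recur across times, and the arrays were treated as unpaired. Over all tested genes, deviations of same-number arrays at 4 d and 0 d correlated at 0.228, 0.07 and 0.0696. Those of unlike numbers correlated at -0.245 to 0.148. Replicate 3 was the highest array for 24 of 30 pan-endothelial markers at 4 d and for 22 at 0 d. For the 21 Kupffer markers replicate 1 was highest for 19 at 4 d and for 8 at 0 d. Whether the numbers pair the arrays was not tested. Alternatives were another filter, no filter, averaged probe sets, quantile normalization, array weights, an intensity trend, arrays set to 1 common median, a replicate block, the 6 arrays alone and leaving out each array. Promoter windows came from RefSeq (GRCm38.p6), and motifs were counted on both strands. Figures were drawn with matplotlib 3.10.9.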

Additional observations from a re-analysis of the deposited data

Results flagged for a closer look

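Among the 257 genes that rose against 0 d, 13 had also risen from 3 d by 4 d and 34 had fallen. Of all tested genes 3.03% had risen and 3.23% had fallen from 3 d. For the 13, 4 d stood above both times in the same limma fit. Col15a1 falls under the naming rule, and the other genes given here were chosen after their values were seen. They were Pepd, Asah2, Thnsl2, Sun5, Dennd2c, Prxl2a, Serinc2, Fhit, Niban2, Pyroxd2, Sod3 and Calml4. The differences from 0 d ran from 0.32 for Pepd to 0.81 for Calml4. For Serinc2 the groups overlapped, with 4 d replicate 3 at 6.44 and 0 d replicate 3 at 6.57, and its highest mean was at 0.25 d. Pyroxd2 was at 8.02, 8.04 and 8.05 on the 4 d arrays, against 7.30, 7.47 and 7.34 on the 0 d arrays, with an average of 7.29 at 3 d. Sod3, the superoxide dismutase of the extracellular space, was at 7.03, 6.90 and 7.01 on the 4 d arrays, against 6.16, 6.38 and 6.38 on the 0 d arrays, and averaged 6.56 at 3 d. Neither gene had overlapping groups.

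Likewise 5 of the 133 genes that fell against 0 d were also lower at 4 d than at 3 d, beside 3.23% of all tested genes. Another 13 of the 133 were higher than at 3 d, beside 3.03%. The 5 were Odc1, Mnd1, Pop1, Rnaseh2c and Tle6, named after their values were seen. Odc1, the first enzyme of polyamine synthesis, was at 9.08, 8.90 and 9.42 on the 4 d arrays, against 9.95, 9.46 and 9.998 on the 0 d arrays, and averaged 9.71 at 3 d. It fell by 0.67 against 0 d (adjusted p = 0.0246) and by 0.58 against 3 d (adjusted p = 0.0347). The 2 contrasts share the 4 d arrays, so a shift of those arrays would enter both.

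Outside the named genes, 25 probe sets without a single gene symbol passed the test at 4 d against 0 d, 14 higher and 11 lower, out of 4290 tested (0.583%).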

How the results depend on the processing

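The count of 390 genes called at 4 d against 0 d was 160 (149 higher, 11 lower) with the 6 arrays alone, and 87 to 361 (62 to 254 higher, 25 to 107 lower) when 1 array was left out, lowest without 0 d replicate 1. The 853 genes called against 3 d became 2012 with array weights. Against 7 d, with 0 called, a filter at 7 gave 4, quantile normalization 1, a common median 3, an intensity trend 3, array weights 152 and a replicate block 2. List members called, 45, became 78 with array weights and 10 to 47 with 1 array left out. Endothelial genes higher, 1, became 3 with a filter at 7, 2 with averaged probe sets, 2 with quantile normalization, 3 with array weights and 0 to 3 with 1 array left out. Stellate genes higher, 1, became 0 with averaged probe sets and 0 to 2 with 1 array left out. Macrophage genes higher, 5, became 9 with a filter at 7, 10 with a replicate block and 0 to 5 with 1 array left out. Matrix genes higher, 14, became 9 with the 6 arrays alone and 6 to 14 with 1 array left out. Cycle genes higher, 19, became 43 with array weights, 34 with the 6 arrays alone and 1 to 19 with 1 array left out. The replicate block, which used the replicate numbers of the titles, called 388 genes in all against 0 d, and moved no other count by over 1.5 times. The cause of these moves was not tested.

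Of 52 named genes called, 11 passed in every setting tried (Cep55, Col4a1, Col4a2, Emilin1, Lcn2, Ly6d, Pcolce, Prox1os, Prtn3, Saa1 and Sparc). The 52 called and 37 uncalled genes checked gave 1302 combinations of gene and setting. Only the 52 called genes could lose a call, and they lost it in 199 combinations, while 0 reversed. The 199 are therefore not a share of the 1302. Among the 37 uncalled genes checked, 6 combinations gained one.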

Other observations

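Both H2-Aa and Cd74, which act in antigen presentation on MHC class II, fell at 4 d, beside 0.975% of all tested genes. H2-Aa, the alpha chain of a class II molecule, was at 8.47, 8.28 and 8.20 on the 4 d arrays, against 9.41, 9.21 and 10.05 on the 0 d arrays, and fell by 1.24 ± 0.34 (SE, adjusted p = 0.0476). Cd74, the invariant chain that escorts class II molecules, was at 7.57, 7.10 and 7.14 on the 4 d arrays, against 8.25, 7.999 and 8.68 on the 0 d arrays, and fell by 1.04 ± 0.25 (SE, adjusted p = 0.0236). The groups did not overlap for either gene.

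The other class II genes were looked up after these values were seen. Of 9 class II genes measured, 3 fell, the third being H2-Eb1 with 7.64, 7.54 and 7.55 on the 4 d arrays, against 8.19, 8.21 and 8.84 on the 0 d arrays (difference -0.84, adjusted p = 0.0466). H2-Ab1 had a difference of -1.003 without overlap and short of the threshold (adjusted p = 0.104), and Ciita, the class II transactivator, one of -0.14. The remaining 4 had differences near 0 and overlapping arrays: H2-DMa with 0.04, H2-DMb2 with -0.06, H2-Ea with -0.02 and H2-Eb2 with -0.08. H2-Aa averaged 9.56 at 0 d, 6.26 at 2 d, 7.81 at 3 d, 8.32 at 4 d, 8.88 at 7 d and 9.33 at 14 d. The call of H2-Aa was lost in each fit without 1 of the 6 arrays, and that of Cd74 in 4 of those 6 fits, with adjusted p up to 0.159 and 0.101. Macrophage markers, given above, had positive differences at the same time.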
